A study of Mus musculus with 8 samples.

Results

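The B cell receptor complex and its coreceptors were followed through 9 genes, chosen by gene symbol from a list of components: the receptor chains Cd79a and Cd79b, the coreceptor subunits Cr2 and Cd81, the inhibitory receptors Cd22 and Fcgr2b, and the kinases Lyn, Syk and Btk. All 9 were present among the 24259 gene symbols of the count table, and all 9 were among the 12744 genes that passed the filter on low counts. RNA had been measured in 8 libraries of pre-germinal center (pre-GC) B cells, which bound the hapten NP, stained low for IgD and were B220+. They were sorted from draining lymph nodes at day 3 after immunization with NP-OVA, which is NP coupled to ovalbumin. The antigen was given under the skin together with lipopolysaccharide (LPS) in alum. The recipients were CD45.1 Sap-/- mice, whose own T cells lack the adaptor SAP and cannot sustain germinal centers, and all had been given OT-II T cells, which carry a transgenic receptor for an ovalbumin peptide. The strain was labelled C57BL/6.

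In the HET group (4 libraries) the transferred OT-II cells were Cd4-cre x Bcl6 fl/+, so that 1 Bcl6 allele was floxed, and in the WT group (4 libraries) they were Cd4-cre with no floxed allele. Both groups thus shared the Cre transgene, the Sap-/- recipients and the immunization. The Cd4 promoter drives Cre in T cells, whereas the sequenced cells were B cells, and the group labels could not be checked against a deleted gene. Cells from the recipients of a group were pooled before about 200 cells were sorted for each library. The p-values here thus cover only how far repeated sorts and library preparations of 1 pool differ, and an effect of the group cannot be told apart from one of the pool.

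The membrane immunoglobulin that binds antigen has almost no cytoplasmic tail of its own and signals through the CD79A and CD79B chains, whose immunoreceptor tyrosine-based activation motifs (ITAMs) are phosphorylated by Src family kinases such as LYN and then bind SYK. SYK in turn engages the adaptor BLNK, and BTK activates phospholipase C gamma 2 and calcium entry. The coreceptor that holds CR2 (CD21) and CD81 lowers the amount of antigen needed, whereas CD22 and the Fc receptor FCGR2B carry inhibitory motifs (ITIMs) that recruit phosphatases.

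The tyrosine motifs are shown because they separate the activating from the inhibitory members. They were read from GENCODE M21 transcripts on GRCm38, 5′ to 3′ on the coding strand, with the tyrosine codons in capitals. The ITAM of Cd79a spans the last bases of exon 4 (chr7:24901296-24901301, plus strand) and the start of exon 5 (chr7:24901431-24901469). The ITAM of Cd79b likewise spans exon 5 (chr11:106312007-106312012, minus strand) and exon 6 (chr11:106311867-106311905).
Cd79a: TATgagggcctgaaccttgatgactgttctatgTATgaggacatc
Cd79b: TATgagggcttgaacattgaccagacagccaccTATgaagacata

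Of their 45 bases, 31 (68.9%) were identical between the paired chains, including both tyrosine codons. In the inhibitory receptors, stretches that code for an isoleucine, valine, leucine or serine, any residue, a tyrosine, any pair of residues and an isoleucine, leucine or valine were searched downstream of the most hydrophobic stretch. Cd22 held 4 of them, in exon 12 (chr7:30867494-30867511), exon 13 (chr7:30867033-30867050) and exon 14 (chr7:30866600-30866617 and chr7:30866540-30866557), all on the minus strand. Fcgr2b held 1, in exon 8 (chr1:170961071-170961088, minus strand).
Cd22, exon 12: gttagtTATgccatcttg
Cd22, exon 13: gtcactTACtcggtgata
Cd22, exon 14, first: atccatTACtcagagctg
Cd22, exon 14, last: gtagacTATgtgaccctc
Fcgr2b, exon 8: atcaccTACtcacttctc

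Library totals ranged from 6652386 to 12559189 counts, and a member had between 910 and 45542 counts in a library. The sorted cells carried B cell RNA: the 9 B cell marker genes, among them Ptprc (which encodes B220), were detected in every library and summed to between 22038 and 28440 CPM (counts per 1000000, after scaling for library composition). Ighd RNA was at 1377 to 2049 CPM, although the sort selected cells with low surface IgD. HET replicate 1 stood apart in antibody transcripts, with 4.46% of its counts in immunoglobulin genes against 2.07% to 2.55% in the other libraries. Its plasmablast markers summed to 2735 CPM against 621 to 998 CPM elsewhere, and Jchain alone gave 1576 CPM of this sum (at most 97.1 CPM elsewhere). Irf4, Mzb1, Ssr4 and Txndc5 were also highest in it, whereas Prdm1, Xbp1, Sdc1 and Tnfrsf17 were higher in another library. WT replicate 2 held 399 CPM of the myeloid gene Lyz2, against at most 28.5 CPM in any other library. No other myeloid marker was highest in it: Csf1r was at 16.9 CPM against 18.7 CPM in WT replicate 3, and Cd68 at 11.8 CPM against 34.1 CPM in HET replicate 1. T cell markers summed to 454 to 712 CPM in HET and 411 to 638 CPM in WT. Cd4 was at 0 in 5 libraries and at most 0.758 CPM in the others. Every other T cell marker was detected in all 8 libraries, among them Cd8a at 7.19 to 57.1 CPM, Trac at 5.17 to 49.7 CPM and Trbc2 at 10.8 to 75.9 CPM. Cd2 (168 to 246 CPM) and Lck (92.4 to 172 CPM) made up the largest parts of the sums. Which cells this Cd2 and Lck RNA came from was not tested, so the sums need not reflect T cell RNA alone. Markers of follicular dendritic and stromal cells, of which 5 of 9 were in the table, summed to at most 24.8 CPM.

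To ask whether the receptor machinery of B cells differed with the Bcl6 genotype of their T cell help, each member was compared between the groups by edgeR's quasi-likelihood test, with Benjamini-Hochberg adjustment over all 12744 genes. No member passed an adjusted p of 0.05, at which 0.0235% of all genes tested were called. At an unadjusted p under 0.05 there were 3 members, Cd22, Cd79b and Cd79a, all lower in HET, against 3.88% of all genes tested in that direction (7.22% in both). DESeq2, the tool used by the study, called Cd22 alone, where it called 1.27% of the 6068 genes to which it gave an adjusted p. The fitted log2 fold change of HET over WT was below 0 for 8 of the 9 members, with a median of -0.11, whereas 50.1% of all genes tested lay below 0, with a median of -0.0014. For Cd79b and Cd22 the groups did not overlap, HET being the lower, a pattern found in 2.62% of all genes tested (4.61% in both directions). In RNA from sorted populations, fewer cells of a type and less RNA per cell cannot be told apart.

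**Figure D1:**
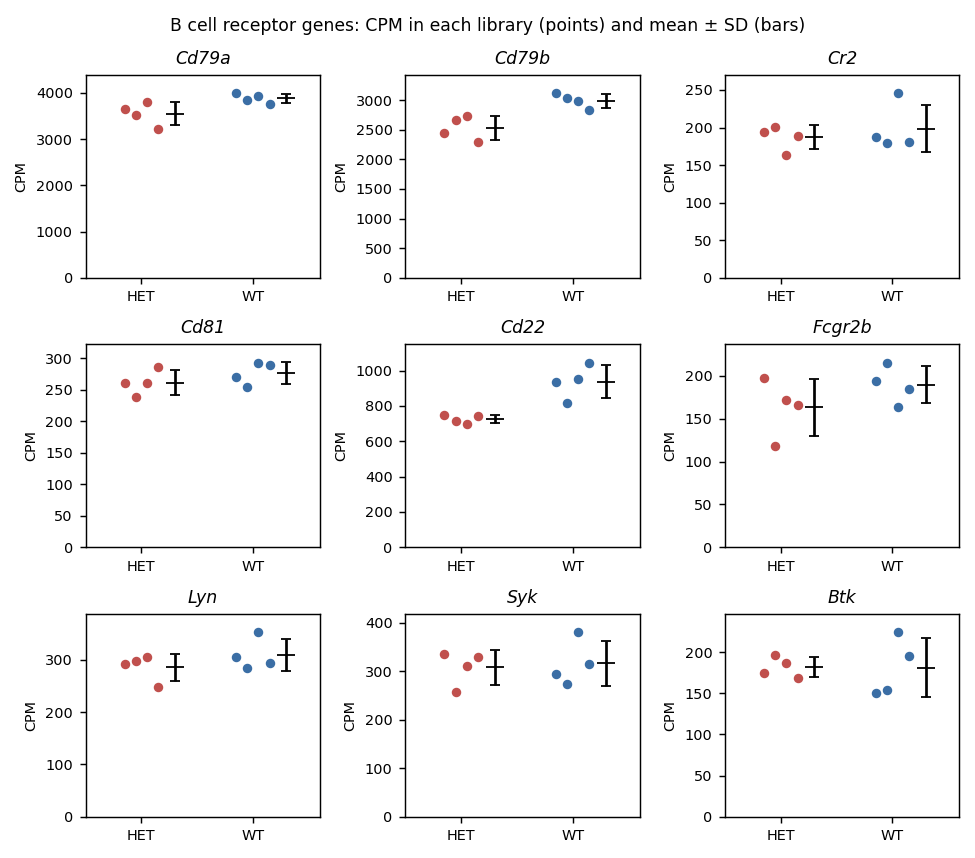
Each panel plots 1 of the 9 genes, with CPM on a linear vertical axis from 0 and the libraries of HET and WT as points; horizontal bars are group means and vertical bars the SD (n = 4). The groups are separate for Cd79b and Cd22 and overlap for the other members.

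Cd79a and Cd79b, which encode the obligate signaling partners of membrane immunoglobulin, were the most abundant members. Cd79a (chromosome 7, 24897381 to 24902197 on GRCm38, plus strand) was at 3661, 3523, 3796 and 3209 CPM in HET replicates 1 to 4. It was at 3999, 3842, 3926 and 3755 CPM in WT replicates 1 to 4. HET replicate 4 was the lowest library, and HET replicate 3 reached above WT replicate 4, so the groups overlapped. The means were 3547 ± 251 CPM in HET against 3881 ± 106 CPM in WT (SD, n = 4 each). The log2 fold change was -0.13 (SE 0.059, 95% interval -0.26 to -0.0034), with an edgeR p of 0.0448 that became 0.669 after adjustment. Without HET replicate 4 the log2 fold change was -0.08, with an unadjusted edgeR p of 0.145. DESeq2 gave Cd79a an unadjusted p of 0.0701 with all libraries kept.

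Cd79b (chromosome 11, 106311341 to 106314762, minus strand) was at 2443, 2658, 2728 and 2290 CPM in the HET replicates. In the WT replicates it was at 3121, 3030, 2978 and 2825 CPM. Every HET library lay below every WT library, the nearest pair being HET replicate 3 and WT replicate 4. The HET mean of 2530 ± 201 CPM (SD, n = 4) was 0.846 times the WT mean of 2988 ± 124 CPM (SD, n = 4). The log2 fold change was -0.24 (SE 0.065, 95% interval -0.38 to -0.10), and the edgeR p of 0.00241 became 0.354 after adjustment. DESeq2 gave an adjusted p of 0.0781, which dropped to 0.0344 when HET replicate 3 was left out and was between 0.107 and 0.300 when any other library was.

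Both chains followed a similar order of libraries, with HET replicate 4 the lowest in HET and WT replicate 4 the lowest in WT. Across the 8 libraries their log2 CPM had a Pearson r of 0.89, the highest of the 36 pairs of members; these points share library, scaling and the group difference. The ratio of Cd79a to Cd79b was compared within libraries, where scaling cancels. Its log2 value per exonic length was 0.56, 0.38, 0.45 and 0.46 in the HET replicates and 0.33, 0.32, 0.37 and 0.38 in the WT replicates. HET replicate 1 was the highest, and HET replicate 2 fell inside the WT range. The means differed by 0.11 (0.46 ± 0.073 against 0.35 ± 0.032, SD, n = 4). The two-sided exact permutation p was 0.0571, with an adjusted p of 0.286 over the 5 ratios examined. The smallest p that 4 against 4 libraries allow is 0.0286. If only 1 of the 5 ratios reached this smallest p, its adjusted p would still miss the threshold. The adjusted p of this ratio, and of the other ratios given below, thus cannot decide whether a ratio differed between groups.

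The 2 coreceptor genes overlapped between the groups. Cr2 (chromosome 1, 195136811 to 195176716, minus strand), the complement receptor that couples opsonized antigen to the receptor, was at 194, 201, 164 and 189 CPM in the HET replicates. It was at 188, 180, 246 and 180 CPM in the WT replicates. WT replicate 3 stood above the other 7 libraries. Cr2 had a log2 fold change of -0.09 (SE 0.12, 95% interval -0.35 to 0.18, edgeR adjusted p = 0.925), and it was 0.04 without WT replicate 3, -0.03 without HET replicate 3 and -0.13 without WT replicate 2.

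Cd81 (chromosome 7, 143052739 to 143067934, plus strand), a tetraspanin of the coreceptor, was at 261, 238, 262 and 286 CPM in HET. In WT it was at 270, 255, 294 and 290 CPM. HET replicate 2 was the lowest library and the only HET library outside the WT range. HET over WT gave a log2 fold change of -0.08 (SE 0.095, 95% interval -0.29 to 0.12, edgeR adjusted p = 0.900), and it was -0.03 without HET replicate 2, -0.05 without WT replicate 3 and -0.12 without HET replicate 4. An exon of Cd81 shares 104 bases with the gene R74862 on the opposite strand, which was at 40.0 ± 4.43 CPM in HET against 36.5 ± 5.43 CPM in WT (SD, n = 4 each). The log2 ratio of Cr2 to Cd81 differed by 0.0051 between groups (exact permutation p = 0.914, adjusted p = 0.914).

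Cd22 showed the lowest p of the 9 members. It encodes a sialic acid-binding lectin of B cells that dampens receptor signaling through the phosphatase SHP-1. Cd22 (chromosome 7, 30865402 to 30880342, minus strand) was at 748, 715, 696 and 741 CPM in the HET replicates, a narrow range. It was at 935, 818, 950 and 1045 CPM in the WT replicates. No HET library reached the lowest WT library, with WT replicate 2 the nearest to HET and WT replicate 4 the farthest. The HET mean of 725 ± 23.7 CPM (SD, n = 4) was 0.774 times the WT mean of 937 ± 93.2 CPM (SD, n = 4).

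The log2 fold change of Cd22 was -0.37 (SE 0.081, 95% interval -0.54 to -0.20). Its edgeR p of 0.000431 ranked 25 among all genes tested and became 0.220 after adjustment, which did not pass. DESeq2 gave the same size of difference (-0.37) with an adjusted p of 0.00467, which passed. With 1 library left out in turn, the DESeq2 adjusted p of Cd22 ran from 4.711e-05 without WT replicate 2 to 0.0763 without WT replicate 4, and only the latter missed 0.05. The edgeR adjusted p ran from 0.168 to 0.531 and the log2 fold change from -0.43 to -0.31. Without HET replicate 1, which stood apart in antibody transcripts, the values were -0.38 and 0.268.

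Exons of Cd22 share 479 of the 509 exonic bases of Gm29439 (chromosome 7, 30872733 to 30873333, plus strand), an antisense gene. Gm29439 was at 106, 93.8, 89.4 and 108 CPM in HET and 137, 112, 150 and 161 CPM in WT, and also did not overlap between groups. Its log2 fold change was -0.49 (SE 0.134, edgeR adjusted p = 0.362). Over the 8 libraries it was the gene with the pattern most like that of Cd22 among 7229 genes searched (Pearson r 0.98). The strand setting of the counting is not given in the sources used here, so reads of the gene pair cannot be told apart. The Gm29439 values thus need not be separate from those of Cd22. With the counts of both added together the log2 fold change was -0.39 (edgeR adjusted p = 0.208).

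Fcgr2b (chromosome 1, 170958617 to 170976547, minus strand), the inhibitory receptor for IgG immune complexes, varied more between repeats than Cd22. It was at 197, 118, 172 and 167 CPM in the HET replicates and 194, 216, 164 and 185 CPM in the WT replicates. HET replicate 2 was the lowest library, and HET replicate 1 exceeded 3 of the 4 WT libraries. HET over WT gave a log2 fold change of -0.21 (SE 0.147, 95% interval -0.53 to 0.10, edgeR adjusted p = 0.805), and it was -0.08 without HET replicate 2 and -0.31 without HET replicate 1. The log2 ratio of Fcgr2b to Cd22 was -2.37 ± 0.301 in HET against -2.51 ± 0.282 in WT (SD, n = 4 each), a difference of 0.13 (exact permutation p = 0.514, adjusted p = 0.914).

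None of the 3 kinase genes separated the groups. Lyn (chromosome 4, 3678115 to 3813122, plus strand), the Src family kinase that phosphorylates both ITAMs and ITIMs, was at 293, 297, 305 and 248 CPM in HET and 306, 284, 353 and 294 CPM in WT. HET replicate 4 was the lowest and WT replicate 3 the highest library. Lyn had a log2 fold change of -0.11 (SE 0.103, 95% interval -0.33 to 0.11, edgeR adjusted p = 0.862), and it was -0.04 without WT replicate 3 and -0.05 without HET replicate 4.

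Syk (chromosome 13, 52583173 to 52648792, plus strand), which docks on phosphorylated ITAMs, was at 336, 257, 310 and 330 CPM in HET and 295, 274, 381 and 316 CPM in WT. HET replicate 2 was the lowest and WT replicate 3 the highest library, and the direction of the difference rested on them. The log2 fold change was -0.04 (SE 0.119, 95% interval -0.29 to 0.22, edgeR adjusted p = 0.972), with 0.04 without HET replicate 2 and 0.07 without WT replicate 3.

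Btk (chromosome X, 134542336 to 134583570, minus strand), the Tec family kinase that acts on phospholipase C gamma 2, was at 175, 196, 186 and 168 CPM in HET. It was at 151, 153, 224 and 196 CPM in WT, so WT replicates 1 and 2 were the lowest libraries and WT replicate 3 the highest. The means were 181 ± 12.4 CPM in HET against 181 ± 35.4 CPM in WT (SD, n = 4 each). It had a log2 fold change of 0.0041 (SE 0.134, 95% interval -0.28 to 0.29, edgeR adjusted p = 0.996). The log2 ratio of Lyn to Syk differed by -0.08 between groups (exact permutation p = 0.600, adjusted p = 0.914) and that of Btk to Syk by 0.06 (p = 0.800, adjusted p = 0.914).

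WT replicate 3 was the highest WT library for 5 members (Cr2, Cd81, Lyn, Syk and Btk) and the lowest for Fcgr2b. HET replicate 4 was the lowest HET library for 4 members (Cd79a, Cd79b, Lyn and Btk). The pairwise correlations of log2 CPM among the members ran from -0.56 (Fcgr2b with Btk) to 0.89 over the 8 libraries. They are given as a description, since all points share library and depth.

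**Figure D2:**
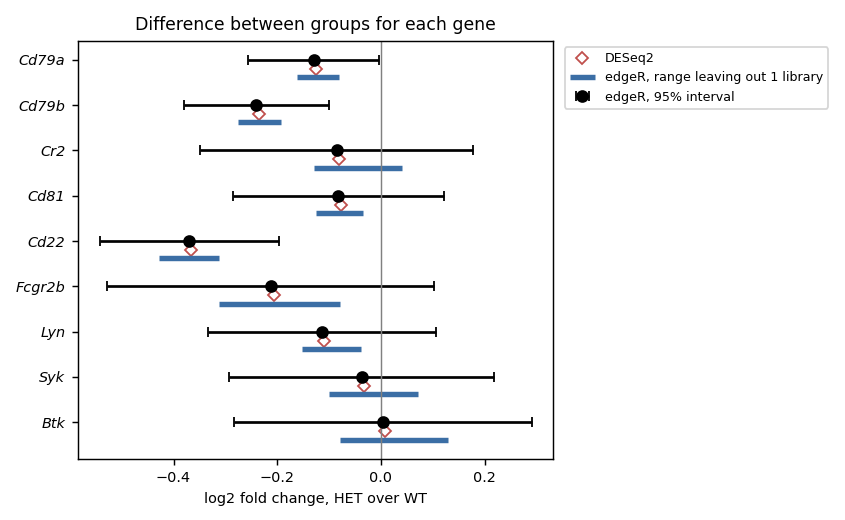
The horizontal axis gives the log2 fold change of HET over WT; black points with bars are edgeR values with 95% intervals, diamonds are DESeq2 values, and blue bars span the edgeR values with each library left out in turn. The intervals of Cd79a, Cd79b and Cd22 lie below 0 and those of the other 6 members include 0.

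Levels were compared between members per length, within libraries. In the deposited TPM (transcripts per 1000000) the order of mean levels was Cd79b, Cd79a, Cd22, Cd81, Fcgr2b, Cr2, Syk, Btk and Lyn. Of the 8 neighbouring pairs, 7 differed (two-sided exact sign-flip permutation tests over 8 libraries, adjusted p from 0.0104 to 0.0179, where 0.00781 is the smallest unadjusted p possible), and Syk and Btk did not (p = 0.641, adjusted p = 0.641). The order came from the same libraries, and an error in a length shifts a pair alike in all of them. These tests, and those per exonic length, thus show only how steady a difference was across repeats on the given scale. The lengths behind these TPM values matched the mean genomic span of a gene's transcripts, introns included, within 2% for 8757 of 8946 genes. The union of exons matched for 161. For Lyn the span was 21.2 times the exonic length, for Btk 8.85 times and for Cd22 1.58 times. Levels of genes with long introns are thus lower on the deposited scale.

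Per exonic length, Cd79a was the highest member, at 5237 ± 375 TPM in HET against 5875 ± 233 TPM in WT (SD, n = 4 each). Cd79b followed at 3807 ± 370 TPM and 4606 ± 201 TPM. The order of these chains was thus the opposite of that in the deposited TPM, where Cd79b was higher than Cd79a in 7 of 8 libraries. Both were below Ighm, the heavy chain they pair with, at 9941 ± 4488 TPM in HET against 8525 ± 280 TPM in WT (SD, n = 4 each).

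After an 11.8-fold step came the inhibitory receptor Cd22, at 309 ± 8.74 TPM in HET against 410 ± 42.7 TPM in WT (SD, n = 4 each). Cd81 was at 196 ± 16.2 and 212 ± 17.8 TPM. Lyn was the highest of the kinases, at 151 ± 14.2 and 168 ± 21 TPM.

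Btk was at 124 ± 10.9 TPM in HET and 127 ± 28.1 TPM in WT, and Syk at 70.8 ± 7.28 and 74.8 ± 13.0 TPM (SD, n = 4). Fcgr2b was at 60.5 ± 10.9 and 72.0 ± 7.0 TPM, and Cr2 was the lowest member, at 49.6 ± 4.19 and 54.2 ± 10.2 TPM. On this scale too 7 of 8 neighbouring pairs differed (exact sign-flip permutation tests, adjusted p = 0.0104 for 6 pairs and 0.0446 for Fcgr2b over Cr2, which held in 6 of 8 libraries). The exception was Syk over Fcgr2b (exact sign-flip permutation p = 0.195, adjusted p = 0.195). All 9 members stood in the same order when the longest transcript gave the length.

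**Figure D3:**
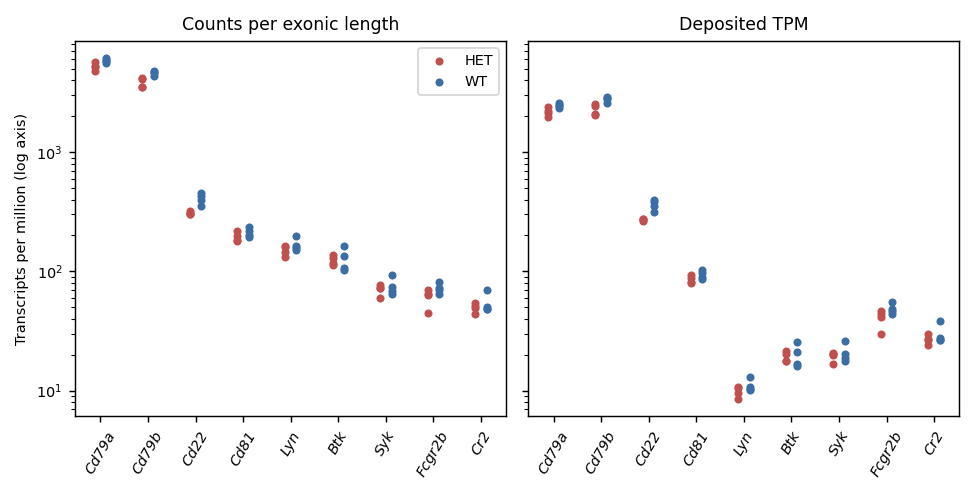
Each point is a library of HET or WT, and the vertical log axis gives the level of the 9 members in TPM, per exonic length on the left and as deposited on the right. Cd79a and Cd79b stand above the other members on both scales, and Lyn, which is 5th in the exonic order, is the lowest as deposited.

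Of 61 other genes of the B cell receptor pathway, in 5 lists, all were tested and none was called by edgeR. At an unadjusted edgeR p under 0.05, 10 were lower and 1 was higher in HET. Of all 12744 genes tested, 494 were lower (3.88%) and 426 were higher at this p. A log2 fold change below 0 was found for 47 of 61 (median -0.13), against 50.1% of all genes tested. DESeq2 called only Ptprc of the 61, where it called 1.27% of all genes with an adjusted p. Of the 61, 2 were lower in HET without overlap between groups (Ptprc and Lat2), against 2.62% of all genes tested, which is a similar share. In the list of receptor and surface genes 8 of 11 were below 0, among kinases 4 of 7, among adaptors and effectors 17 of 19, among negative regulators 8 of 9, and among calcium and NFAT genes 10 of 15.

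Of the genes that act beside the receptor chains, Ptprc, whose CD45 phosphatase keeps Src family kinases active, was at 834 to 887 CPM in HET and 926 to 1171 CPM in WT, without overlap. Its log2 fold change was -0.29 (SE 0.077, edgeR adjusted p = 0.344, DESeq2 adjusted p = 0.0493). Ighd had a log2 fold change of -0.27 (edgeR adjusted p = 0.527) and the CD22-related lectin Siglecg of -0.24 (adjusted p = 0.612).

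Ighm had a log2 fold change of 0.28 (edgeR adjusted p = 0.905), which was -0.13 without HET replicate 1, the library at 15362 CPM against 6145 to 7657 CPM in the others. The 1 gene higher in HET at an unadjusted p under 0.05 was Lair1, an inhibitory collagen receptor, at 3.03 to 26.6 CPM in HET and 0.102 to 5.22 CPM in WT (log2 fold change 2.04, SE 0.811, edgeR adjusted p = 0.613). HET replicate 1 was the highest Lair1 library.

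Downstream, the log2 fold change was -0.25 for Bank1, a scaffold of B cells (edgeR adjusted p = 0.569), -0.26 for Lat2, a membrane adaptor (adjusted p = 0.554), and -0.44 for Prkcb, the protein kinase C that leads to NF-kappaB (adjusted p = 0.492). It was -0.61 for the exchange factor Vav3 (edgeR adjusted p = 0.630), -0.61 for Pag1, an adaptor that recruits the inhibitory kinase CSK (adjusted p = 0.604), and -0.47 for the calcium channel Itpr3 (adjusted p = 0.621). All 6 had an unadjusted p under 0.05. Without WT replicate 4, the highest library for Pag1 at 86.6 CPM, its value was -0.34. Lat2 was the only one of them without overlap, at 261 to 297 CPM in HET and 315 to 356 CPM in WT. The most abundant gene of the other lists had smaller differences, with log2 fold changes of -0.21 for the Src family kinase Blk (edgeR adjusted p = 0.740), -0.08 for Ptpn6, which encodes SHP-1 (adjusted p = 0.876), and -0.10 for Nfatc1 (adjusted p = 0.921).

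**Figure D4:**
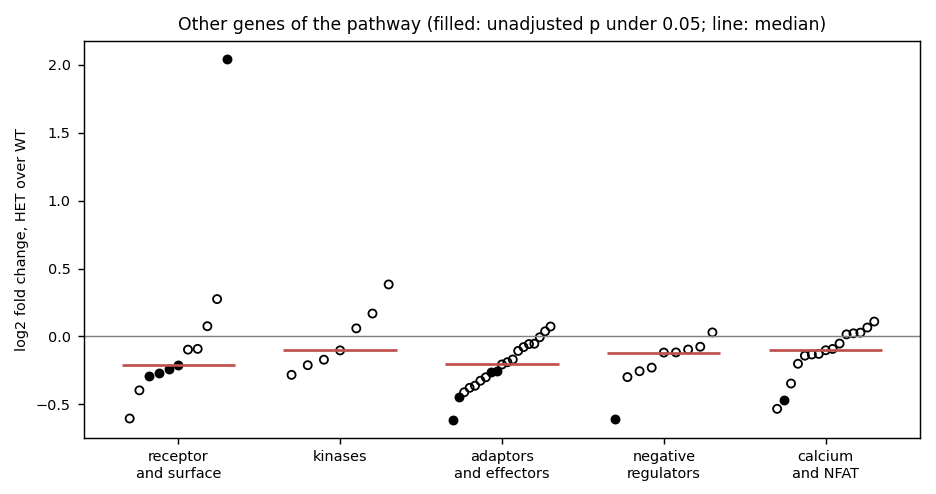
The vertical axis gives the log2 fold change of HET over WT for the 61 pathway genes, 1 point each, grouped by list; filled points had an unadjusted edgeR p under 0.05 and lines are list medians. The points below 0 number 47, and Lair1 at 2.04 is the farthest above it.

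General B cell genes differed in the same direction as most members. All 9 B cell markers had a log2 fold change below 0, with a median of -0.21, of which 7 had an unadjusted p under 0.05 (3.88% of all genes tested in that direction) and 5 did not overlap between groups (Ms4a1, Ebf1, Ptprc, Cd74 and H2-Aa; 2.62% of all genes tested). None was called by edgeR, and DESeq2 called Ptprc, Cd74 and H2-Aa. Their summed level was 22038 to 23250 CPM in HET and 25343 to 28440 CPM in WT, so the sums did not overlap. The largest parts of these sums were Cd74 (10785 to 11680 CPM in HET, 12618 to 15157 CPM in WT) and H2-Aa. H2-Aa was at 4447 to 5752 CPM in HET and 6226 to 6659 CPM in WT, so the sums mainly follow Cd74 and H2-Aa. All 7 markers of naive follicular B cells were below 0 too, with a median of -0.27, 5 at an unadjusted p under 0.05 and 2 without overlap (Klf2 and Btg1). None was called by edgeR and Klf2 was called by DESeq2. Their sums were 4824 to 5928 CPM in HET and 6197 to 6576 CPM in WT.

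The members themselves took 0.751% to 0.865% of all counts in HET and 0.900% to 0.968% in WT. The marker genes Ptprc, Blnk and Ighd are also among the pathway genes. The part of these marker levels in the lower values of Cd22 and Cd79b was not tested. In the opposite direction, 10 of 11 T cell markers tested had a log2 fold change above 0 (median 0.55), none at an unadjusted p under 0.05. The exception was Cd2 (-0.14), which made up the largest part of the overlapping sums given above. Of the plasmablast markers tested, 6 of 8 were above 0 (median 0.20), also none at an unadjusted p under 0.05, and the list summed to 630 to 2735 CPM in HET and 621 to 985 CPM in WT. Of the myeloid markers tested, 4 of 5 were below 0 (median -1.10), 1 of them at an unadjusted edgeR p under 0.05 (Csf1r, log2 fold change -0.93). The list summed to 20.5 to 63.0 CPM in HET and 30.0 to 436 CPM in WT, where Lyz2 gave 399 CPM of the highest sum. All 3 ranges overlapped. Without WT replicate 2, which held the Lyz2 RNA, the log2 fold change of Cd22 was -0.43 (edgeR adjusted p = 0.168).

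**Figure D5:**
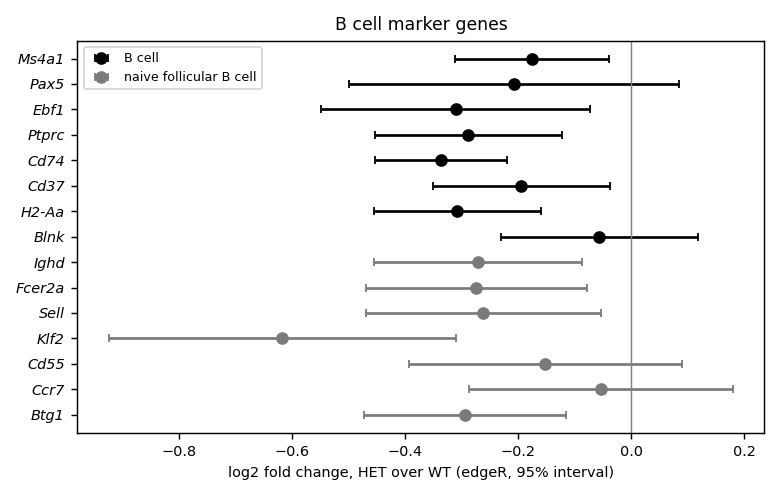
The horizontal axis gives the log2 fold change of HET over WT from edgeR, with 95% intervals as bars, for 8 of the 9 B cell markers (black) and the 7 naive follicular markers (grey). All 15 points lie below 0, from -0.05 for Ccr7 to -0.62 for Klf2.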

How the data were processed

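The 8 libraries were grouped by their titles into HET (4) and WT (4). The authors prepared them by SMART-Seq2 adapted to about 200 cells, without molecular identifiers, aligned reads to GRCm38 (mm10) with HISAT2 2.2.1 and counted them per gene with HTSeq (versions and names from the submitters' processing notes and the study's methods). Annotation release, strandedness and the treatment of reads with several alignments are not given in the sources used here. The counts deposited by the authors are whole numbers of reads per gene symbol, and the deposited TPM are the same counts per length, with introns in the length.

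The group difference (HET over WT) was fitted with edgeR 4.0.16 under R 4.3.3, by the robust quasi-likelihood F-test on TMM-scaled counts of the 12744 genes that filterByExpr kept, without covariates. P-values were Benjamini-Hochberg adjusted over all genes tested, with a threshold of 0.05. CPM are counts per 1000000 after TMM scaling. DESeq2 1.42.0, which the study used, and limma 3.58.1 were alternatives. TPM per exonic length was computed from the counts with exon unions of GENCODE M21, a choice made after the deposited lengths had been examined. Levels were compared by exact sign-flip tests within libraries and ratios by exact permutation tests over 70 arrangements of the libraries, all two-sided. The common biological coefficient of variation was 0.391, and repeats of a group differed by more than counting error.

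The 9 members and the gene lists were chosen with earlier results of these data known. All members were named, with every pathway gene at an unadjusted p under 0.05 and the most abundant gene of each pathway list. Marker genes were named where they check the sort or show what the sum of a list held. They were also named where a library stood apart, where groups did not overlap or where DESeq2 called them. The values of 1 gene that this rule names are not reported here, though it stays in the counts and sums of its lists.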

Additional observations from a re-analysis of the deposited data

Results flagged for a closer look

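The highest or lowest library of a group was examined for its distance from the other 3 in 58 sets of 4 values (the members, the named pathway genes and the 5 ratios in each group). In 2 of them the gap took up more of the range than Dixon's 95% critical value for 4 samples allows, where chance gives about 1 in 20, or 2.9 here. Cr2 stood at 246 CPM in WT replicate 3, the other WT libraries lying at 180 to 188 CPM (gap 0.883 of the range). Ighm stood at 15362 CPM in HET replicate 1, the other HET libraries lying at 6145 to 7366 CPM (gap 0.868 of the range). That library also had the highest sum of plasmablast markers, 2735 CPM, of which Jchain gave 1576 CPM.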

How the results depend on the processing

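The 3 genes called over the whole table became 77 with DESeq2, 38 with no filter on low counts, 7 with a mean of at least 50 counts, 0 with the replicate number as a block, 0 by limma-trend on log2(TPM + 1) with or without a mean TPM of at least 1, and 1 on log2(TPM + 0.1). With 1 library left out the count ran from 1 (without any of the 4 HET replicates or WT replicate 3) to 6 (without WT replicate 1). Replicate numbers did not pair the libraries (correlations of deviations of same-numbered libraries from -0.048 to 0.0191), and under the block Cd22 had a log2 fold change of -0.36 and an edgeR adjusted p of 0.367. The cause of these moves was not tested.

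The count of called members, 0 by edgeR, was 1 with DESeq2 and, as an alternative chosen after seeing the data, 1 to 2 when DESeq2 was run without 1 library (0 without WT replicate 4). Voom with quality weights, RLE size factors, leaving out immunoglobulin genes and the other settings called none. Cd22, Cd79b, Cd79a, Cd81, Fcgr2b and Lyn kept their direction in every setting run. Of these, Cd79a, Cd81, Fcgr2b and Lyn were not called in any setting, so a steady direction was not particular to Cd22 and Cd79b. Btk, at 0.0041, was at -0.0023 without a filter, at -0.028 in each of the 3 TPM settings, and between -0.079 and 0.13 with a library left out (below 0 without HET replicate 2 or 3 or WT replicate 1 or 2). With a library left out, the log2 fold change ran from -0.13 to 0.041 for Cr2 (above 0 without WT replicate 3), from -0.10 to 0.071 for Syk (above 0 without HET replicate 2 or WT replicate 3), from -0.13 to 0.42 for Ighm (below 0 without HET replicate 1) and from -0.20 to 0.041 for Nfatc1 (above 0 without WT replicate 3). Without changing sign, Blk ran to -0.12 without HET replicate 4, Siglecg to -0.15 without WT replicate 3 and Ptpn6 to -0.030 without HET replicate 1 and -0.13 without HET replicate 3. The difference in log2 ratio ran from -0.075 to 0.084 for Cr2 over Cd81, from -0.19 to 0.023 for Lyn over Syk and from -0.067 to 0.13 for Btk over Syk. No member had under 910 counts in a library, but the reads carry no molecular identifiers, so these counts do not give the number of RNA molecules sampled from about 200 cells.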
